A study of Mus musculus with 24 samples.

Results

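Messenger RNA of 7 genes that regulate transcription in pachytene spermatocytes, Mybl1, Tcfl5, Ovol1, Ovol2, Zfp541, Kctd19 and Btbd18, was examined among the 55536 genes of a bulk RNA-seq count table. The 7 genes were picked by name, for what they are known to do at this stage and with earlier results of these data known, and each was found once in the table by its Ensembl identifier in GENCODE M21. All 7 passed the filter on low counts in both cell fractions. The libraries came from 2 fractions of adult testis, pachytene/diplotene spermatocytes and round spermatids, enriched on a bovine serum albumin gradient and above 70% pure per the labels. The males were untreated C57BL/6J mice of 10 to 15 weeks with the genotypes Ago413+/+ (wild-type), Ago413+/- (heterozygous) and Ago413-/- (null). Ago413 names a germline deletion on chromosome 4 that takes out Ago1 entirely and Ago3 and Ago4 in part, so every cell of the body carries it, somatic cells of the testis included. Each preparation combined testes of 2 to 5 mice. The spermatocytes were represented by 4 wild-type, 3 heterozygous and 3 null libraries and the round spermatids by 3, 4 and 4 in the same order, after 3 libraries that the labels call outliers were set aside (wild-type spermatocyte replicate 3, heterozygous spermatocyte replicate 4 and wild-type round spermatid replicate 3).

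The pachytene stage is the long part of meiotic prophase in which homologous chromosomes are fully paired, and male germ cells then switch on a large set of genes for meiosis and for later sperm formation. MYBL1, also called A-MYB, is the transcription factor that turns on much of this set, including the precursors of pachytene piRNAs, the small RNAs bound by PIWI proteins. TCFL5 is a basic helix-loop-helix factor that works beside it. OVOL1 and OVOL2 are related zinc finger proteins, and OVOL1 is known as a repressor needed for passage through pachytene. ZFP541 and KCTD19 sit in 1 complex with the histone deacetylases HDAC1 and HDAC2, and BTBD18 is a nuclear protein needed for transcription of a subset of pachytene piRNA loci.

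In the null libraries the 4 genes that encode DNA-binding regulators outside the ZFP541 complex, Mybl1, Tcfl5, Ovol1 and Ovol2, lay below every wild-type library used in spermatocytes, as did 14.8% of all genes tested. In round spermatids Ovol1, Zfp541 and Kctd19 lay below every wild-type library used, as did 10.3% of all genes. Ovol2 lay below as well, but its lower level in the null of this fraction was known when the genes were picked and is given as a description. Few of these differences passed the test across all genes, as given for each gene below.

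Promoter sequences are shown for Tcfl5 and Ovol2, because both lay low in null spermatocytes and because MYB and OVOL proteins bind known short motifs. RefSeq promoter windows of 300 bases on GRCm38.p6 were at hand for 4 of the 7 genes, Tcfl5, Ovol2, Zfp541 and Btbd18, and not for Mybl1, Ovol1 and Kctd19. Capitals mark matches, on either strand, to the MYB core AACNG and to the OVOL motif CCGTTA. A match to the OVOL motif always holds a match to the MYB core on the opposite strand, and then both are counted. The Tcfl5 window is chr2:180642642-180642941 on the minus strand and the Ovol2 window is chr2:144331313-144331612 on the minus strand.
Tcfl5: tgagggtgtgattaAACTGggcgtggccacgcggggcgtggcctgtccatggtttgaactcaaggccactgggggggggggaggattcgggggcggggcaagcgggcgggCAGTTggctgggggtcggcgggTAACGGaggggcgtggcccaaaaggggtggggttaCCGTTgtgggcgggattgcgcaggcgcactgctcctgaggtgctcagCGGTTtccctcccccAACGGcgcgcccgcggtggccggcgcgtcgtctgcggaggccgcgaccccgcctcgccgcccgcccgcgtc
Ovol2: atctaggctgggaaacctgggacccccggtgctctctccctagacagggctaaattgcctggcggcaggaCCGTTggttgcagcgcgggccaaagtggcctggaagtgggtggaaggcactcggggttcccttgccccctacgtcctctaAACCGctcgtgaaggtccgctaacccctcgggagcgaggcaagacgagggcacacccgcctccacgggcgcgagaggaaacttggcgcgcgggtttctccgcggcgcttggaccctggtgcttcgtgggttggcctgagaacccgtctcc

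The Tcfl5 window held 6 matches to the MYB core and 1 to the OVOL motif. The Ovol2 window held 2 matches to the MYB core and none to the OVOL motif. Zfp541 had 2 and Btbd18 had 0 matches to the MYB core, and neither had the OVOL motif. Of all 32851 mouse promoter windows of this length, 80.3% held the MYB core, with 1.77 matches on average, and 2.76% held the OVOL motif. The palindromes CACGTG (an E-box, in 7.15% of all windows) and TGACGTCA (a cyclic AMP response element, in 1.79%) were in none of the 4 windows. A match is a run of letters and is no measure of binding.

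The genotype labels were checked on the targeted genes. Ago1 had 0 counts in all 7 null libraries and 32 to 122 counts in each wild-type and heterozygous library. Counts assigned to Ago3 were higher in the null than in the wild type of each fraction, at 38.2 to 86.4 against 4.92 to 11.3 CPM (counts as a share of the library total after scaling by the trimmed mean of M values) in spermatocytes and 16.6 to 46.8 against 3.86 to 5.92 CPM in round spermatids. In the heterozygote Ago3 was at 12.3 to 40.8 CPM in spermatocytes and 17.3 to 25.3 CPM in round spermatids, above the wild type. Levels of Ago1 overlapped between the heterozygote and the wild type. Ago4 was at 16.8 to 46.8 CPM in wild-type and 9.50 to 16.1 CPM in null spermatocytes. In round spermatids Ago4 was at 14.2 to 20.6 and 9.67 to 13.4 CPM. Total counts ranged from 12825105 to 29749058 per library. Elongating spermatid markers (6 of 6 detected) summed to 4011 to 13744 CPM in spermatocyte and 18546 to 50054 CPM in round spermatid libraries. Round spermatid markers (8 of 8 detected) summed to 975.3 to 2781 and 1806 to 3028 CPM, ranges that overlapped. The 7 pachytene and diplotene markers (7 of 7 detected, among them Hspa2 and Ccna1) summed to 6278 to 8700 and 6650 to 8827 CPM. Their sum thus did not separate the fractions. In the wild type Spdya was at 101.9 to 111.4 CPM in spermatocytes and 48.4 to 54.3 CPM in round spermatids. Hspa2, Tbpl1 and Ldhc were also higher in spermatocytes without overlap. Pgk2 was lower there (519.4 to 820.6 against 1192 to 1469 CPM), and Ccna1 and Piwil1 overlapped. Sertoli cell markers (6 of 6 detected, with Clu highest) summed to 75.3 to 400.6 CPM over all libraries. In such bulk samples, fewer cells of a type and less RNA per cell cannot be told apart.

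**Figure D1:**
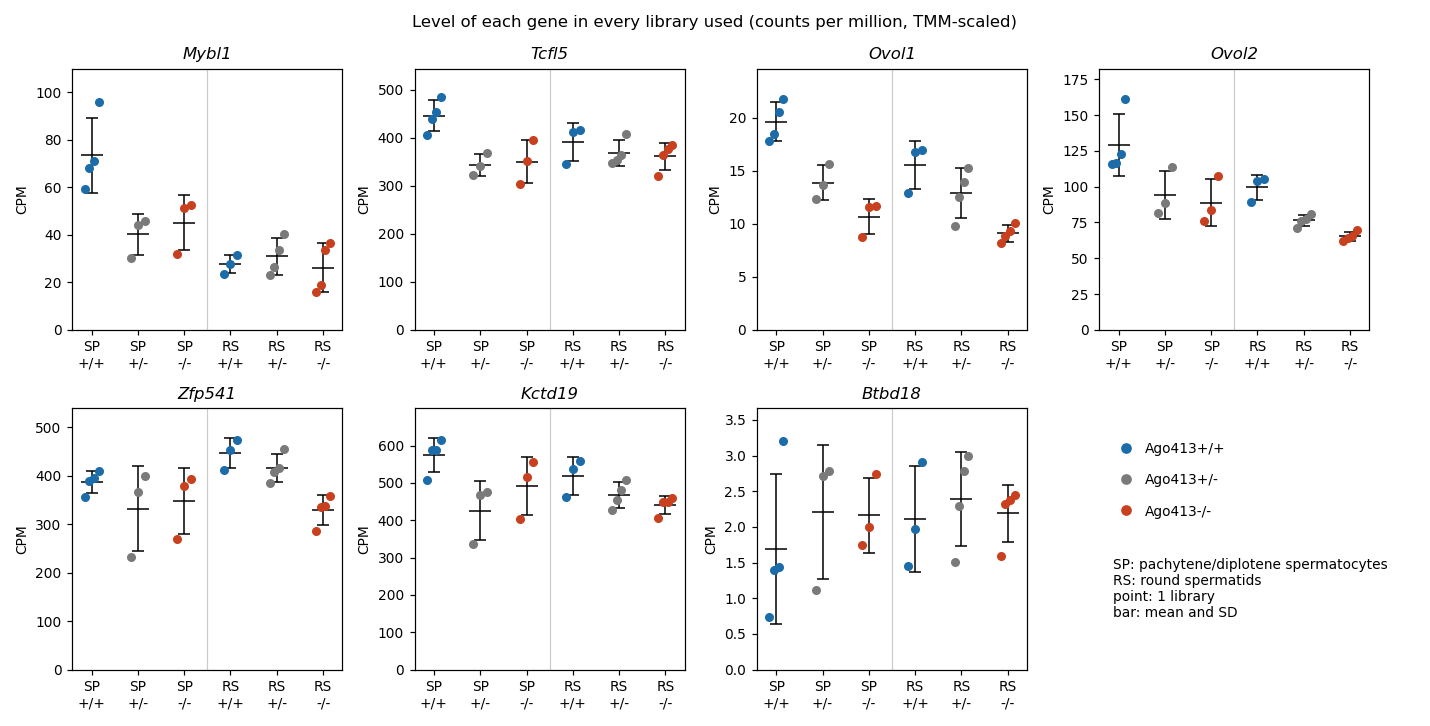
Each point is the level of a gene in 1 library in CPM (vertical axis, from 0), and bars give the mean and SD per group for spermatocytes (SP) and round spermatids (RS) of the genotypes +/+, +/- and -/-. Ovol1 and Ovol2 of the -/- libraries lie below the +/+ libraries in both fractions, and Mybl1 is highest in +/+ spermatocytes, at 59.2 to 96.0 CPM.

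Levels per transcript length spanned over 2 orders of magnitude between the 7 genes. In wild-type spermatocytes Kctd19 (chromosome 8, 105382807 to 105413502, minus strand) had 188.7 ± 15.2 RPKM (CPM divided by the kilobases of annotated exon, SD, n = 4). Tcfl5 (chromosome 2, 180621956 to 180642708, minus strand) had 140.9 ± 10.4 RPKM and Zfp541 (chromosome 7, 16061814 to 16096334, plus strand) 79.4 ± 4.55 RPKM. These 3 genes formed the top of the order in each of the 6 groups.

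Ovol2 (chromosome 2, 144305175 to 144332146, minus strand) followed at 61.1 ± 10.2 RPKM in wild-type spermatocytes, below Zfp541 by more than the SD of either gene. Mybl1 (chromosome 1, 9667415 to 9700209, minus strand) had 13.6 ± 2.92 RPKM and Ovol1 (chromosome 19, 5549136 to 5560646, minus strand) 5.63 ± 0.521 RPKM. Btbd18 (chromosome 2, 84659079 to 84668780, plus strand) was lowest at 0.482 ± 0.299 RPKM, which rested on 10 to 66 counts per library. Mybl1 and Ovol1 were neighbours that lay within their spread of each other in wild-type round spermatids, at 5.11 ± 0.706 and 4.46 ± 0.657 RPKM (SD, n = 3). Divided by the longest transcript in place of all exons, Tcfl5 (200.5 RPKM) came above Kctd19 (188.7 RPKM) and Ovol2 (83.4 RPKM) above Zfp541 (79.4 RPKM) in wild-type spermatocytes, so the order within those pairs depends on the length used.

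**Figure D2:**
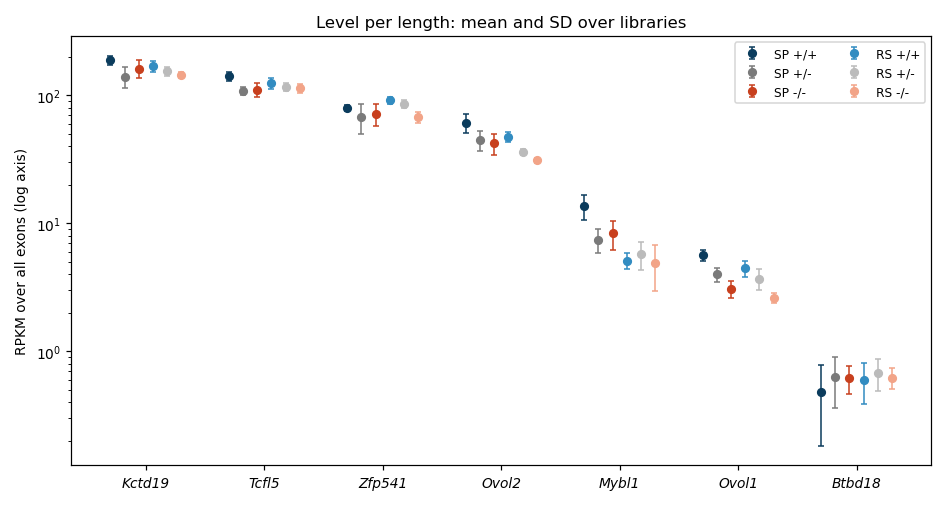
Mean level per length with SD over the libraries of a group, in RPKM over all annotated exons on a log axis, for the 6 groups of libraries. Kctd19, Tcfl5 and Zfp541 have means of 67.5 RPKM or more in every group, and the means of Btbd18 do not exceed 0.680 RPKM.

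The comparison of null with wild-type spermatocytes asks how the regulators stand when the Argonaute genes are deleted. No gene of the 7 was called by edgeR (adjusted p under 0.05 and absolute log2 fold change above 0.5), against 0.0411% of the 19450 genes tested. DESeq2 called 1, Ovol1, as lower, against 7.33% of genes called lower. At an unadjusted edgeR p under 0.05 there were 4, Mybl1, Tcfl5, Ovol1 and Ovol2, against 30.4% of genes. These are the 4 whose null libraries all lay below all wild-type libraries, which held for 14.8% of the genes tested. The median log2 fold change of the 7 genes was -0.33, against -0.03 over all genes tested.

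Mybl1, the activator, stood at 70.9, 68.0, 96.0 and 59.2 CPM in the wild-type spermatocyte libraries (replicates 1, 2, 4 and 5). It stood at 31.9, 52.4 and 51.2 CPM in the null libraries (replicates 1, 2 and 3). The highest null library was below the lowest wild-type library. The log2 fold change was -0.68 (SE 0.23, adjusted p = 0.0795 with edgeR), and by DESeq2 the adjusted p was 0.0519.

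Tcfl5, the helix-loop-helix factor, had 485.6, 454.4, 438.1 and 406.6 CPM in the wild-type libraries. In the null it had 304.4, 395.4 and 351.8 CPM, so the groups did not overlap. The difference was small, with a log2 fold change of -0.33 (SE 0.14, adjusted p = 0.126 with edgeR). Tcfl5 shares 234 exon bases with Col9a3 on the opposite strand, which stood at 1.26 to 3.83 CPM in spermatocytes.

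Ovol1, the zinc finger repressor, had 21.7, 20.5, 18.5 and 17.8 CPM in wild-type spermatocytes. In the null it had 8.80, 11.6 and 11.6 CPM. All null values were under all wild-type values, with a wide gap between the groups. The log2 fold change was -0.86 (SE 0.20), the largest of the 7, with an adjusted p of 0.0599 by edgeR and 0.00164 by DESeq2. Ovol1 shares 766 exon bases with Gm31166 and AC126029.1 on the opposite strand, and Gm31166 stood at 121.7 to 136.2 CPM in the wild-type and 102.7 to 133.4 CPM in the null, overlapping ranges. Which strand's counts the table holds is not given in the sources used here.

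Ovol2, its relative, had 122.7, 161.1, 115.9 and 116.4 CPM in the wild-type and 75.9, 107.5 and 83.4 CPM in the null. The groups did not overlap, with wild-type replicate 2 far above the rest. The log2 fold change was -0.52 (SE 0.19, adjusted p = 0.0951 with edgeR). Its opposite-strand neighbour 1700108N11Rik, which shares 359 exon bases, had 115.4 to 161.3 CPM in the wild-type and 103.7 to 128.0 CPM in the null.

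For the genes of the ZFP541 complex, null and wild-type spermatocytes overlapped. Zfp541 ranged from 356.3 to 408.6 CPM in the wild-type and from 268.5 to 393.7 CPM in the null, with a log2 fold change of -0.14 (SE 0.19, adjusted p = 0.624 with edgeR). Kctd19 ranged from 508.4 to 616.2 CPM and from 404.1 to 556.3 CPM, with a log2 fold change of -0.21 (SE 0.16, adjusted p = 0.384 with edgeR). Null replicate 1 was the lowest null library for both genes. Btbd18, the piRNA locus factor, had 10 to 66 counts per wild-type library, and its log2 fold change of 0.37 had a 95% interval from -0.52 to 1.25, which includes 0.

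Whether Mybl1 and Ovol1 were called in null spermatocytes changed with the processing. With no filter on low counts Mybl1 (log2 fold change -0.65, edgeR adjusted p = 0.0486) and Ovol1 (-0.83, 0.0372) were called, and with only the compared groups fitted Ovol1 was (-0.81, 0.0465). Without wild-type replicate 5, Mybl1 (log2 fold change -0.77, edgeR adjusted p = 0.0348) and Ovol1 (-0.90, edgeR adjusted p = 0.0108) were called, as were 4526 genes in all against 8 with it. The labels also number the libraries, and with numbers up to 60 Mybl1 was at 68.0 to 96.0 CPM (n = 3) in the wild-type and 31.9 CPM (n = 1) in the null, while above 60 it was at 59.2 CPM (n = 1) and 51.2 to 52.4 CPM (n = 2). For Ovol1 the values were 18.5 to 21.7 and 8.80 CPM up to 60, and 17.8 and 11.6 CPM above 60. Round spermatid markers (8 of 8 detected, none at 0) summed to 975.3 to 1729 CPM in the wild-type and 1850 to 2147 CPM in the null spermatocyte libraries, and the 7 pachytene and diplotene markers to 7939 to 8700 and 6677 to 7654 CPM. Sertoli cell markers summed to 134.5 to 373.5 CPM in the wild-type and 80.97 to 146.8 CPM in the null, and 6 of 6 had a log2 fold change below 0 (median -0.74). Their part in the result was not tested.

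The wild-type spermatocyte library set aside as an outlier bears on these 4 genes. On the scale of all 24 libraries it had 42.1 CPM of Mybl1, 328.9 CPM of Tcfl5, 14.2 CPM of Ovol1 and 88.8 CPM of Ovol2, each below the wild-type libraries used. With it, null and wild-type would overlap for Mybl1, Tcfl5 and Ovol2 and not for Ovol1. With the wild-type and heterozygous spermatocyte libraries set aside added back the log2 fold changes were -0.51 for Mybl1, -0.21 for Tcfl5, -0.73 for Ovol1 and -0.38 for Ovol2 (edgeR adjusted p from 0.159 to 0.393).

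**Figure D3:**
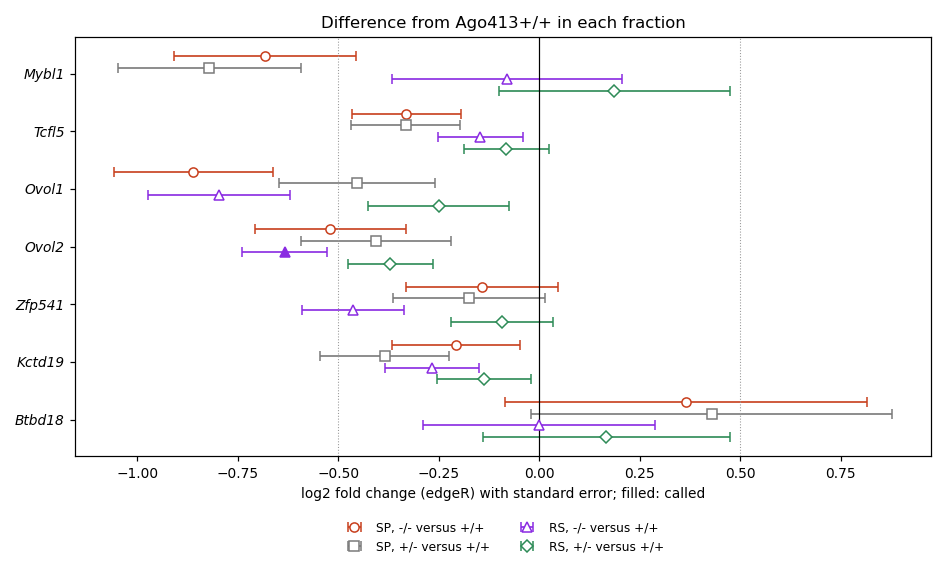
Points are edgeR log2 fold changes from +/+ with standard errors for the -/- and +/- libraries of spermatocytes (SP) and round spermatids (RS), filled where called, with dotted lines at the fold threshold of 0.5. Ovol1 lies near -0.8 in the null of both fractions. Mybl1 of SP lies at -0.68 (-/-) and -0.82 (+/-), and Mybl1 of RS at -0.08 (-/-) and 0.19 (+/-). This gap depends on the outliers being left out. With them added back, Mybl1 of the -/- libraries is at -0.51 for SP and -0.40 for RS, and +/- SP is at -0.78.

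In null against wild-type round spermatids the 7 genes had a median log2 fold change of -0.27, against 0.03 over all genes tested. That median includes Ovol2, whose lower level here was known when the genes were picked, so nothing is read from the median. The values of Ovol2 here are a description and nothing is read from its call. It was the 1 gene of the 7 that edgeR called lower, beside 0.0259% of the 19310 genes tested, and DESeq2 called Ovol1 as well, beside 2.82%. Of the other 6 genes, Ovol1, Zfp541 and Kctd19 had null libraries wholly below the wild-type libraries, beside 10.3% of all genes.

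Ovol2 had 104.3, 89.3 and 105.1 CPM in wild-type round spermatids (replicates 1, 2 and 4). The 4 null libraries had 69.6, 65.6, 62.3 and 64.1 CPM. They lay close together and under each wild-type library, at a log2 fold change of -0.63 (SE 0.11). 1700108N11Rik on the opposite strand was at 123.5 to 134.4 CPM in the wild-type and 99.5 to 128.4 CPM in the null.

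Ovol1 had 17.01, 12.9 and 16.7 CPM in the wild-type and 8.90, 9.28, 10.1 and 8.17 CPM in the null. Again no null library reached the wild-type range. The log2 fold change of -0.80 (SE 0.18) had an adjusted p of 0.0774 by edgeR and 0.00284 by DESeq2. By library number, wild-type and null libraries were at 12.9 to 17.01 (n = 2) and 8.90 to 9.28 CPM (n = 2) up to 60, and at 16.7 (n = 1) and 8.17 to 10.1 CPM (n = 2) above 60. With no filter on low counts Ovol1 was called by edgeR (-0.75, adjusted p = 0.0426).

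Zfp541, the zinc finger subunit of the deacetylase complex, had 473.3, 452.9 and 412.3 CPM in wild-type round spermatids. In the null it had 285.3, 335.3, 358.7 and 337.6 CPM, without overlap, a log2 fold change of -0.46 (SE 0.13) with an adjusted p of 0.0911 by edgeR and 0.0138 by DESeq2. The difference was under the fold threshold for a call by either tool.

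Kctd19, its BTB-domain partner, had 558.7, 536.5 and 461.4 CPM in the wild-type and 449.4, 458.8, 448.3 and 405.0 CPM in the null. The lowest wild-type and highest null libraries were almost level, and the log2 fold change was -0.27 (SE 0.12, adjusted p = 0.229 with edgeR).

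Mybl1 in round spermatids had 27.8, 23.7 and 31.3 CPM in the wild-type and 18.8, 15.9, 33.5 and 36.6 CPM in the null. The null libraries fell on both sides of the wild-type ones, and the log2 fold change of -0.08 had a 95% interval from -0.64 to 0.48. Its sign turned when wild-type replicate 4 or null replicate 1 or 2 was left out (0.01, 0.06 and 0.10). Tcfl5 had 345.9 to 416.7 CPM against 320.5 to 385.0 CPM (-0.15 on the log2 scale, SE 0.11, adjusted p = 0.459 with edgeR). Btbd18 had 1.45 to 2.91 against 1.59 to 2.45 CPM, with a 95% interval of the log2 fold change from -0.57 to 0.57.

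The call of Ovol2 in round spermatids was lost when any 1 of the 7 libraries compared was left out (adjusted p from 0.0744 to 0.203), while its log2 fold change stayed between -0.69 and -0.60. With the wild-type round spermatid library set aside as an outlier added back it was -0.59 (edgeR adjusted p = 0.0427). Ovol1 was then at -0.75 (edgeR adjusted p = 0.0731), Zfp541 at -0.48 (0.0761) and Kctd19 at -0.28 (0.177). Mybl1 moved from -0.08 to -0.40 (edgeR adjusted p = 0.490), while Tcfl5 was at -0.07 (0.756) and Btbd18 at 0.02 (0.970). Round spermatid markers summed to 1955 to 2407 CPM in the wild-type and 2319 to 3028 CPM in the null round spermatid libraries, and the pachytene and diplotene markers to 7371 to 8150 and 6650 to 8827 CPM. Macrophage markers (6 of 6 detected, with C1qc at 0 in 1 wild-type library) summed to 9.23 to 12.7 CPM in the wild-type and 13.4 to 19.3 CPM in the null, without overlap. The part of these markers in the result was not tested.

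In heterozygous spermatocytes the median log2 fold change of the 7 genes from the wild type was -0.38, against 0.07 over all genes. No gene of the 7 was called by edgeR, against 0.0257% of genes tested, and DESeq2 called Mybl1 lower, against 3.46%. At an unadjusted edgeR p under 0.05 were 5 of the 7 (24.6% of all genes). The same 5 genes, Mybl1, Tcfl5, Ovol1, Ovol2 and Kctd19, had heterozygous libraries wholly below the wild-type ones, against 11.2% of genes. For Ovol2 this depended on scaling both fractions together, because the groups overlapped when spermatocytes were scaled alone. If the wild-type spermatocyte library set aside were included, the groups would overlap for Mybl1, Tcfl5, Ovol1 and Ovol2 and not for Kctd19. The wild-type libraries are shared with the null comparison, so the values of both are set side by side without a test of their likeness.

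Mybl1 had 44.3, 45.8 and 30.4 CPM in the heterozygous libraries (replicates 1, 2 and 3), all under the wild-type minimum of 59.2 CPM. The log2 fold change was -0.82 (SE 0.23), with an adjusted p of 0.124 by edgeR and 0.0324 by DESeq2. Ovol1 had 15.7, 13.7 and 12.3 CPM, between the wild-type and the null ranges (log2 fold change -0.45, SE 0.19, adjusted p = 0.177 with edgeR). Without wild-type replicate 5 the value of Mybl1 was called at -0.90 (edgeR adjusted p = 0.0296), among 2966 genes against 5 with it, and with no filter on low counts at -0.86 (0.00949).

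Tcfl5 had 340.5, 322.0 and 367.6 CPM in the heterozygote, a log2 fold change of -0.33 (SE 0.14, adjusted p = 0.163 with edgeR). Kctd19 had 468.5, 474.7 and 335.5 CPM (-0.38, SE 0.16, adjusted p = 0.169 with edgeR) and Ovol2 81.3, 88.3 and 113.5 CPM (-0.41, SE 0.19, adjusted p = 0.201 with edgeR). Replicate 3 was lowest for Mybl1, Ovol1, Zfp541, Kctd19 and Btbd18 and highest for Tcfl5 and Ovol2. Zfp541 was at 365.3, 398.5 and 232.7 CPM (-0.17, SE 0.19, adjusted p = 0.588 with edgeR) and Btbd18 at 1.12 to 2.79 CPM (0.43, SE 0.45, adjusted p = 0.571 with edgeR). Heterozygous replicate 3 stood apart, with a chi-square per gene of 95.8 and 114.2 against replicates 1 and 2, which differed from each other by 9.75. Without it the log2 fold changes were -0.66 for Mybl1, -0.39 for Tcfl5, -0.38 for Ovol1, -0.57 for Ovol2, -0.25 for Kctd19, 0.02 for Zfp541 and 0.72 for Btbd18 (edgeR adjusted p from 0.115 to 0.940).

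Round spermatid markers summed to 1550 to 2781 CPM in the heterozygous spermatocyte libraries, against 975.3 to 1729 CPM in the wild-type. Pachytene and diplotene markers summed to 6278 to 8087 against 7939 to 8700 CPM, with 6 of 7 below 0. Leydig cell markers (5 of 5 detected, none at 0) summed to 6.03 to 22.8 against 3.25 to 10.1 CPM, with 5 of 5 above 0 (median log2 fold change 1.18). The part of these markers in the result was not tested.

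In heterozygous round spermatids Ovol2 was the 1 gene of the 7 with libraries wholly below the wild type, against 5.39% of all genes. It had 77.8, 80.9, 76.1 and 71.03 CPM (replicates 1 to 4), under the wild-type minimum of 89.3 CPM and above the null maximum of 69.6 CPM, at a log2 fold change of -0.37 (SE 0.11, adjusted p = 0.551 with edgeR). None of the 7 was called by edgeR (0.0207% of all genes) or by DESeq2 (0.0363%). Ovol2 alone had an unadjusted edgeR p under 0.05 (8.88%). These Ovol2 values are a description, because they share the wild-type libraries with the null comparison, which was known when the gene was picked. The other 6 genes overlapped with the wild type, with log2 fold changes of 0.19 for Mybl1, -0.08 for Tcfl5, -0.25 for Ovol1, -0.09 for Zfp541, -0.14 for Kctd19 and 0.17 for Btbd18 (edgeR adjusted p from 0.674 to 0.900).

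Null and heterozygous libraries were compared directly as well, and none of the 7 genes was called in either fraction (edgeR, 0.00514% of genes in spermatocytes and 0.00518% in round spermatids, DESeq2 0.0206% and 0.112%). In spermatocytes Ovol1 was lower in all null than in all heterozygous libraries (3.57% of genes), at a log2 fold change of -0.41 (SE 0.21, adjusted p = 0.974 with edgeR). The heterozygous spermatocyte library set aside had 9.99 CPM of Ovol1 on the scale of all 24 libraries, inside the null range, so with it the groups would overlap. The other 6 genes overlapped without it, from -0.11 for Ovol2 over -0.06 for Btbd18, 0.0017 for Tcfl5, 0.03 for Zfp541 and 0.14 for Mybl1 to 0.18 for Kctd19. Leydig cell markers summed to 6.03 to 22.8 CPM in the heterozygous and 4.57 to 6.94 CPM in the null spermatocytes. Sertoli cell markers summed to 75.3 to 400.6 and 80.97 to 146.8 CPM. The part of these markers was not tested. In round spermatids Zfp541 was lower without overlap (2.37% of genes), at -0.37 (SE 0.12, adjusted p = 0.631 with edgeR). Ovol2 lay lower there as well (-0.26, SE 0.10), which is a description because its null values were known when it was picked. Ovol1 (-0.54, SE 0.17, adjusted p = 0.631 with edgeR), Mybl1 (-0.27), Btbd18 (-0.17), Kctd19 (-0.13) and Tcfl5 (-0.06) overlapped. The unadjusted edgeR p values were under 0.05 for Ovol1 and Zfp541 of the other 6 genes in round spermatids, against 7.67% of genes, and for none of the 7 in spermatocytes, against 3.74%. The levels of Ovol2 in round spermatids ran from wild-type over heterozygous to null without any overlap between groups, although neither the wild-type-to-heterozygous nor the heterozygous-to-null difference passed the test. This order uses the null values known when the gene was picked and is a description.

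Across the 2 fractions of the wild type, Mybl1 was the gene of the 7 called lower. It was lower in all 3 round spermatid libraries (23.7 to 31.3 CPM) than in all 4 spermatocyte libraries (59.2 to 96.0 CPM), with a log2 fold change of -1.42 (SE 0.28, adjusted p = 0.00109 with edgeR). It was 1 of the 7 called, against 11.4% of the 20404 genes called lower by edgeR, and DESeq2 called no other of the 7, against 14.1%. The fold left Mybl1 in round spermatids at 0.375 of its spermatocyte level.

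Ovol1 (-0.34, SE 0.17, adjusted p = 0.159 with edgeR) and Ovol2 (-0.37, SE 0.15, adjusted p = 0.0679 with edgeR and 0.0306 with DESeq2, short of the fold threshold) were also lower without overlap, which with Mybl1 makes 3 of the 7 against 16.4% of genes. Zfp541 was higher without overlap (0.20, SE 0.16, adjusted p = 0.365 with edgeR), 1 of 7 against 17.3%. The wild-type spermatocyte library set aside had 14.2 CPM of Ovol1, 88.8 CPM of Ovol2 and 485.0 CPM of Zfp541. If it were included, the fractions would overlap for these genes. Tcfl5 (-0.19, SE 0.12, adjusted p = 0.270 with edgeR), Kctd19 (-0.15, SE 0.14, adjusted p = 0.458 with edgeR) and Btbd18 (0.32, SE 0.39, adjusted p = 0.588 with edgeR) overlapped between the fractions.

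**Figure D4:**
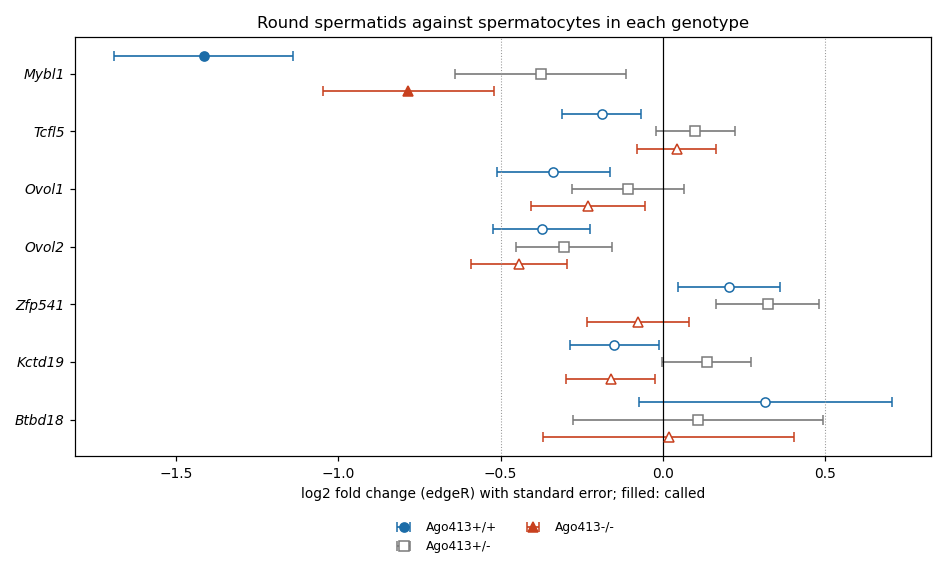
Points are edgeR log2 fold changes of round spermatids against spermatocytes with standard errors within each genotype, filled where called, with dotted lines at 0.5. Mybl1 is called lower in +/+ (-1.42) and in -/- (-0.78) and lies at -0.38 in +/-.

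The fall of Mybl1 between the fractions was called in the null too, at -0.78 (SE 0.26, adjusted p = 0.0422 with edgeR), against 5.42% of genes called lower by edgeR (7.49% by DESeq2, which called no other of the 7). There the groups overlapped, because null spermatocyte replicate 1 (31.9 CPM) was below 2 of the 4 null round spermatid libraries (33.5 and 36.6 CPM). In the heterozygote it was -0.38 (SE 0.26, adjusted p = 0.424 with edgeR) and none of the 7 was called by edgeR (1.82% of genes called lower) or by DESeq2 (3.17%), nor had any an unadjusted edgeR p under 0.05 (23.6%). Ovol2 was lower in round spermatids without overlap in the heterozygote (-0.30, SE 0.15, adjusted p = 0.216 with edgeR, 7.07% of genes) and in the null (-0.44, SE 0.15), where its round spermatid values were known when it was picked and nothing is read from them. The other 5 genes overlapped between the fractions, at 0.10 for Tcfl5, -0.11 for Ovol1, 0.32 for Zfp541, 0.14 for Kctd19 and 0.11 for Btbd18 in the heterozygote and at 0.04, -0.23, -0.08, -0.16 and 0.02 for the same genes in the null (edgeR adjusted p from 0.224 to 0.981).

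The libraries set aside as outliers decided how firm this fall was. On the scale of all 24 libraries, Mybl1 had 55.5 CPM in the wild-type round spermatid library set aside, above the 23.8 to 31.4 CPM of the libraries used, and 42.1 CPM in the wild-type spermatocyte library set aside, below the 59.4 to 96.3 CPM of those used. With the libraries added back the wild-type log2 fold change was -0.96 (edgeR adjusted p = 0.0630), and 0 genes were called in all (4934 without them). With them left out, dropping any 1 further library kept the wild-type difference of Mybl1 between -1.51 and -1.26 (edgeR adjusted p from 0.000829 to 0.00834), while for the null it ranged from -0.99 to -0.61 (0.0144 to 0.183). In the null, Sertoli cell markers summed to 80.97 to 146.8 CPM in spermatocytes and 210.5 to 381.6 CPM in round spermatids, with 6 of 6 above 0 (median log2 fold change 1.51), and in the wild type to 134.5 to 373.5 and 153.2 to 399.3 CPM. Macrophage markers summed to 4.05 to 9.45 and 13.4 to 19.3 CPM in the null and to 2.96 to 4.67 and 9.23 to 12.7 CPM in the wild type, where C1qc was at 0 in all 4 spermatocyte libraries. The part of these markers was not tested. The call of Mybl1 in the null was lost without null spermatocyte replicate 2 or 3 or null round spermatid replicate 1 or 2. It was also lost with the outliers added back (-0.78, edgeR adjusted p = 0.108), with only the compared groups fitted (-0.80, 0.0817) and with a block that joins spermatocyte and round spermatid libraries of consecutive library numbers (-0.63, 0.0664).

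Whether the genotype differences themselves differed between the fractions was tested as an interaction. No gene of the 7, and 0 of all 20404 genes, passed in either genotype by edgeR or by DESeq2, with 5.95% of genes for the null and 7.72% for the heterozygous effect at an unadjusted edgeR p under 0.05, Mybl1 of the 7 being among the latter. The largest among the 7 was that of Mybl1. Its null difference was 0.63 (SE 0.38) higher in round spermatids than in spermatocytes on the log2 scale (adjusted p = 0.807 with edgeR), and its heterozygous difference was 1.04 (SE 0.38) higher (adjusted p = 0.637 with edgeR). With the outliers added back these values were 0.18 (edgeR adjusted p = 0.922) for the null and 0.71 (0.703) for the heterozygote. For the other 6 genes the differences ran from -0.30 (Btbd18) over -0.28 (Zfp541), -0.07 (Ovol2), -0.01 (Kctd19) and 0.11 (Ovol1) to 0.23 (Tcfl5) for the null and from -0.21 (Btbd18) over 0.07 (Ovol2), 0.12 (Zfp541), 0.23 (Ovol1) and 0.28 (Kctd19) to 0.29 (Tcfl5) for the heterozygote. A lower level of Mybl1 in spermatocytes alone was therefore not shown by the test of the difference.

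The 7 genes varied unlike amounts among themselves. Over the 21 libraries Mybl1 spanned a 6.04-fold range, from 15.9 CPM in null round spermatid replicate 2 to 96.0 CPM in wild-type spermatocyte replicate 4. Ovol1 spanned 2.66-fold and Ovol2 2.59-fold. Zfp541 spanned 2.03-fold, Kctd19 1.84-fold and Tcfl5 1.60-fold. Btbd18 spanned 4.30-fold, and its SD within groups (0.57 on the log2 scale) exceeded the SD of its group means (0.23). For Mybl1 and Ovol1 the SD of the group means, 0.57 and 0.39, exceeded that within groups, 0.40 and 0.20.

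The likeness of 2 patterns was taken as the root mean square difference of log2 CPM, each gene centred on its mean over the 21 libraries. The pair of the 7 closest in pattern was Zfp541 and Kctd19, the partners of 1 complex, at 0.175, beside Tcfl5 and Kctd19, also at 0.175. Ovol1 and Ovol2 differed by 0.240. Mybl1 was no closer than 0.490 to any other of the 7.

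Among the 10752 genes with a mean of at least 5 CPM, many genes outside the set were closer. The nearest to Mybl1 were Crebrf (0.119), Topors (0.121) and Nck1 (0.121), against a median of 0.670 over all genes. Muc3 (0.0834), Mplkip (0.109) and Zdhhc12 (0.112) were nearest to Ovol2, and Bcl2l1 (0.157), Smarcd2 (0.164) and Sppl3 (0.170) to Ovol1. Nearest to Tcfl5 was Eif5a (0.0726), to Zfp541 Pnpla7 (0.0822), to Kctd19 Gramd1b (0.0607) and to Btbd18 Baz1b (0.280). All 21 libraries share their fractions and genotypes between the genes, so this is a description.

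Genes linked to the 7 by pathway were read from lists. Of 13 piRNA pathway genes, many of which MYBL1 is known to activate, 12 had a log2 fold change below 0 in null spermatocytes, with a median of -0.64 against -0.03 over all genes. None was called by edgeR and 5 were called lower by DESeq2 (7.33% of all genes). Piwil1, a PIWI protein of the pachytene stage, was at 176.0 to 655.4 CPM in the wild-type and 71.99 to 234.3 CPM in the null spermatocytes, overlapping ranges (-1.43, SE 0.49, adjusted p = 0.0849 by edgeR and 0.0287 by DESeq2). Tdrd1, a Tudor scaffold of the same pathway, was at 59.5 to 255.6 against 38.6 to 84.7 CPM (-1.32, SE 0.49, adjusted p = 0.0993 by edgeR and 0.0422 by DESeq2). With no filter on low counts edgeR called Piwil1 (-1.39, adjusted p = 1.37e-08) and Tdrd1 (-1.29, 1.71e-06), as it did without wild-type replicate 5 (-1.68, 0.0244 and -1.59, 0.0271). In null spermatocytes 3 of 13 lay wholly below the wild type, against 14.8% of all genes. In heterozygous spermatocytes 13 of 13 were below 0, with a median of -0.63 against 0.07 over all genes. In null round spermatids 11 of 13 were below 0, with a median of -0.39 against 0.03 over all genes, and 6 of 13 lay wholly below the wild type, against 10.3% of all genes. None was called there by edgeR or DESeq2 (0.0259% and 2.82% of all genes called lower). Between the fractions of the wild type 8 of 13 were called lower by edgeR, against 11.4% of all genes, with a median of -0.77 against 0.02 over all genes. With the outliers added back 0 genes were called in that comparison.

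The ZFP541 complex partners on the list were Hdac1, Hdac2 and Dnttip1. Hdac1, a class I histone deacetylase, was at 277.9 to 293.0 CPM in the wild-type and 152.5 to 190.9 CPM in the null spermatocytes, far apart (-0.68, SE 0.13, adjusted p = 0.0599 by edgeR and 0.000597 by DESeq2). There edgeR called it with no filter on low counts (-0.66, adjusted p = 0.0205), with only the compared groups fitted (-0.64, 0.0465) and without wild-type replicate 5 (-0.69, 0.00727). In round spermatids it was at 248.2 to 274.0 and 145.6 to 165.9 CPM and was called lower (-0.80, SE 0.11, adjusted p = 0.00644 with edgeR). Leaving out wild-type replicate 2 or 4 ended that call (-0.78, edgeR adjusted p = 0.0523 and -0.77, 0.0642). Hdac1 has near-identical pseudogene copies, so its counts are uncertain. Hdac2 (-0.06 and -0.03, edgeR adjusted p = 0.812 and 0.907) and Dnttip1, the deacetylase complex scaffold (-0.12 and -0.07, edgeR adjusted p = 0.634 and 0.772), overlapped between null and wild-type in both fractions.

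Mybl2, the relative of Mybl1 that is known from dividing cells, lay higher in null than in wild-type spermatocytes. It was at 8.41 to 18.03 CPM in the wild-type and 18.3 to 31.4 CPM in the null, without overlap (1.09, SE 0.30, adjusted p = 0.0618 by edgeR and 0.0111 by DESeq2). EdgeR called it with no filter on low counts (1.11, adjusted p = 0.00156), with only the compared groups fitted (1.13, 0.0474), with the replicate block by label number (1.54, 0.0464) and without wild-type replicate 5 (1.38, 0.00718). Myb and Ovol3 were too low to be tested. Id2, which OVOL1 is known to repress, could be tested in round spermatids and stood at 0.703 to 1.65 CPM in the wild-type and 0.834 to 2.01 CPM in the null (0.43, SE 0.42, adjusted p = 0.601 with edgeR).

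Of 17 other transcription regulators of male germ cells, 16 were tested, and 13 of the 16 lay above 0 in null spermatocytes, with a median of 0.68. None was called by edgeR and 7 were called higher by DESeq2 (10.3% of all genes). Stra8, which drives entry into meiosis, was at 3.66 to 5.62 CPM in the wild-type and 6.93 to 11.7 CPM in the null (1.05, SE 0.27, adjusted p = 0.0599 by edgeR and 0.00569 by DESeq2). In heterozygous spermatocytes Stra8 was called higher, at 14.5 to 23.8 CPM (2.08, SE 0.27, adjusted p = 0.0107 with edgeR), against a call share of 0.0257% of all genes. That call was lost without wild-type replicate 1 (2.00, edgeR adjusted p = 0.0679) or 2 (2.06, 0.0730), with the outliers added back (1.49, 0.142), with the replicate block by label number (2.11, 0.127) and with only the compared groups fitted (2.05, 0.0710). The STRA8 partner Meiosin, listed as Gm4969, was at 1.06 to 2.62 and 3.96 to 6.66 CPM (1.78, SE 0.38, adjusted p = 0.0599 by edgeR and 0.00113 by DESeq2). Prdm9, the methyltransferase that places recombination sites, was at 0.372 to 1.41 and 1.74 to 2.41 CPM (1.46, SE 0.43, adjusted p = 0.0657 by edgeR and 0.0141 by DESeq2). In null spermatocytes edgeR called Stra8, Meiosin and Prdm9 with no filter on low counts (adjusted p = 0.0102, 7.58e-05 and 0.0155) and with only the compared groups fitted (0.0465, 0.0465 and 0.0492). It called Stra8 (0.0277) and Meiosin (0.0149) without wild-type replicate 5, and Meiosin with the replicate block by label number (2.40, 0.0357). Spermatogonial markers (6 of 6 detected, with Sohlh1 and Dmrt1 on both lists) summed to 31.04 to 40.7 CPM in the wild-type, 35.3 to 62.5 CPM in the null and 40.6 to 72.9 CPM in the heterozygous spermatocytes, ranges that overlapped. Of these markers 5 of 6 lay above 0 in the null (median 0.48) and 6 of 6 in the heterozygote (median 0.87). Leptotene and zygotene markers (5 of 5 detected, with Prdm9 on both lists) summed to 6.96 to 18.6, 10.0 to 11.3 and 10.2 to 13.4 CPM in the same order, ranges that overlapped. The part of these markers in the result was not tested. Stra8, Meiosin and Prdm9 stood low in both groups, and in null round spermatids none of the 16 was called by either tool.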

How the data were processed

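The authors deposited raw counts per gene for 24 poly(A) libraries made with a directional kit. Per the paper's methods and the submitters' processing notes, reads were trimmed with Trim Galore (reads under 50 nt removed) and aligned to mm10 with STAR, whose gene counting gave the deposited counts. Tool versions, the strand column and the annotation release are not given in the sources used here. Symbols and 1-based coordinates came from GENCODE M21 (GRCm38). At most 0.0928% of the 31-base words of any of the 7 genes occurred in another gene.

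The 7 genes, the lists and the tests were chosen with earlier results of these data known. Groups came from the labels, and 3 labelled outliers were left out, which leaves 21 libraries. No label ties libraries to separate animals beyond pools of 2 to 5 mice, so p-values measure the spread between preparations. Over 37 pairs of libraries within groups the chi-square per gene was 9.75 to 179, so none was a repeat. Same replicate numbers did not pair libraries across genotypes (correlation of deviations over 0.1 in 8 of 17 pairs).

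Genes that reached 10 counts in 3 or more libraries were fitted with edgeR 4.0.16 (R 4.3.3; quasi-likelihood test, TMM scaling), each fraction with its 3 genotypes for genotype comparisons and all 6 groups for stage and interaction. Calls required both a p under 0.05 after Benjamini-Hochberg adjustment over all genes tested and a log2 fold change past 0.5 in either direction. The standard error is the absolute log2 fold change over the square root of F, and intervals are 95% normal ones from it. DESeq2 1.42.0 was the main alternative. Others were its size factors in edgeR, no filter, only the compared groups, a replicate block, a library number term and each library left out. The outliers of the fraction or fractions fitted were also added back. Library levels are CPM of genes passing the filter in the 21-library fit, and markers are whole lists. All 7 genes were named in each comparison. Of each list of related genes, the 2 with the largest log2 fold change in null spermatocytes, any called by edgeR in a genotype comparison, and all of lists of 3 or fewer were named. Reads carry no molecular identifiers, so counts of low genes such as Btbd18 are the least precise.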

Additional observations from a re-analysis of the deposited data

Results flagged for a closer look

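Ovol2 in wild-type spermatocyte replicate 2 stood at 161.1 CPM while the other 3 wild-type libraries lay between 115.9 and 122.7 CPM, a gap of 0.849 of the group's whole range. Btbd18 in null round spermatid replicate 1 stood at 1.59 CPM against 2.33 to 2.45 CPM in the other 3, a gap of 0.852 of the range. These were 2 of 21 gene-by-group sets of 4 libraries examined, and chance alone gives about 1 in 20.

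In the libraries that the labels call outliers, and that entered the comparisons only where they are said to be added back, 5 values lay above the libraries of their group on the scale of all 24 libraries. Zfp541 had 485.0 CPM in wild-type spermatocyte replicate 3 against 357.4 to 409.8 CPM. In heterozygous spermatocyte replicate 4, Zfp541 had 410.9 CPM against 233.2 to 399.9 CPM and Kctd19 had 477.8 CPM against 336.3 to 476.3 CPM. In wild-type round spermatid replicate 3, Mybl1 had 55.5 CPM against 23.8 to 31.4 CPM and Zfp541 had 477.8 CPM against 413.4 to 474.4 CPM. Another 9 values lay below the libraries of their group, 4 of them in wild-type spermatocyte replicate 3 as given above. In heterozygous spermatocyte replicate 4 these were Mybl1 (26.6 against 30.5 to 46.0 CPM), Ovol1 (9.99 against 12.3 to 15.7 CPM) and Ovol2 (76.8 against 81.5 to 113.8 CPM), and in wild-type round spermatid replicate 3 Tcfl5 (312.5 against 347.4 to 417.9 CPM) and Ovol2 (88.8 against 89.7 to 105.4 CPM).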

How the results depend on the processing

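The number of genes called moved most. With DESeq2 it was 3026 (edgeR 8) for null and 1228 (5) for heterozygous against wild-type spermatocytes, 702 (10) and 7 (4) for the same in round spermatids, and 4 (1) and 20 (1) for null against heterozygous. Members of the 7 called by DESeq2 in the first 3 of these were 1, 1 and 2. Without a filter on low counts the counts were 2623, 1481, 238, 10, 30 and 11, with 2, 1 and 2 of the 7. Fitting only the compared groups gave 1303, 2 and 0 genes for the spermatocyte comparisons and 505 for the heterozygous fractions (1814), with 1 of the 7 in null spermatocytes and 0 in null round spermatids and the null fractions. DESeq2-type size factors gave 20 genes in null round spermatids. With the outliers added back there were 3 in heterozygous spermatocytes, 26 in null round spermatids, 0 between the fractions of the wild type (4934) and the heterozygote, and 2275 for the null (3498), with 0 of the 7 for wild type and null. A term for library number gave 4 genes in null spermatocytes and 0 of the 7 in null round spermatids, where Ovol2 was at -0.63 (edgeR adjusted p = 0.0917).

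The replicate numbers are shared without pairing the libraries. With the replicate block by label number, 687 genes were called in null and 2 in heterozygous spermatocytes, and 0 of the 7 in null round spermatids (Ovol2 -0.63, edgeR adjusted p = 0.108). Libraries of the 2 fractions with consecutive library numbers deviated together more often (correlation over 0.1 in 8 of 9 pairs, from -0.12 to 0.648), though not in every pair. With a block of consecutive library numbers, 1189 genes were called between the heterozygous fractions and 0 of the 7 for the null (Mybl1 -0.63, edgeR adjusted p = 0.0664).

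Leaving out 1 library at a time gave 4 to 4526 genes in null and 3 to 2966 in heterozygous spermatocytes, 5 to 9 in null round spermatids, 1 to 2 for null against heterozygous round spermatids, and 962 to 2329 and 1248 to 4129 between the heterozygous and null fractions. Members called ranged from 0 to 2 in null and 0 to 1 in heterozygous spermatocytes, were 0 in null round spermatids and ranged from 0 to 2 between the null fractions. The causes were not tested.

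Signs turned for values near 0. Btbd18 in null round spermatids was 0.0143 with DESeq2, 0.0138 with its size factors, 0.0365 without a filter, 0.0234 with the outliers, 0.0983 with the library number term and -0.19 to 0.33 with 1 library left out. Hdac2 was 0.0487 with the library number term (-0.18 to 0.0555 with 1 left out) in spermatocytes and 0.0047 without a filter (-0.14 to 0.0940) in round spermatids. With 1 left out, Mybl1 in null round spermatids ran from -0.32 to 0.10 and Zfp541 in heterozygous spermatocytes from -0.33 to 0.0200. Over all 77 values of the 7 genes, 64 of 1148 refits changed sign, none of a value above 0.298 in size. Counts of 10 to 79 per library limit Btbd18.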
